A study of Sus scrofa with 18 samples.

Results

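The lysosomal enzymes and membrane proteins described here were chosen by gene symbol. Of the 41 symbols, 40 matched a row of the count table, which holds 29884 genes in all, and NAGLU was not analysed here. The 40 genes are 12 proteases, 9 proteins of sphingolipid and ganglioside breakdown, 6 enzymes of glycosaminoglycan breakdown, 4 enzymes of glycogen and glycoprotein breakdown, 3 other soluble proteins, 5 membrane proteins and the transcription factor TFEB. RNA-seq libraries were made from subcutaneous fat of the back (SAF) and visceral fat next to the kidney (VAF) of male Bama pigs, a miniature breed, which shared 1 sire and were fasted before slaughter. The 9 pigs were 1, 3 or 6 months old, with 3 pigs at each age, and both depots were sampled, which gives 6 groups of 3 libraries. No group received a treatment or carried an engineered allele, and every group is limited to males of 1 breed and 1 sire. A library is named by depot, age and replicate, so that SAF1-2 is replicate 2 of SAF at 1 month, and the sources do not say whether an equal number in the 2 depots marks the same pig.

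Lysosomes are acidic compartments in which hydrolases break down proteins, lipids, glycogen and the sugar chains of the matrix delivered by endocytosis and autophagy. Most soluble hydrolases are made as precursors, tagged with mannose 6-phosphate in the Golgi and sorted to the lysosome by receptors, while membrane proteins such as LAMP1 and LAMP2 line its limiting membrane. In fat, adipocytes carry lysosomes that take part in lipid turnover, and tissue macrophages are rich in cathepsins. TFEB and its relatives MITF and TFE3 are transcription factors that bind a palindromic promoter sequence, the CLEAR element, in many lysosomal genes.

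Promoters of 300 bases, from 250 before the gene start to 50 from it onward, were read from the RefSeq genome and annotation of Sscrofa11.1, the build the counts rest on, for all 40 genes. The core CACGTG was present in 12 of the 40 promoters (30%), against 1547 of 19501 promoters of protein-coding genes in the table (7.93%). The longer TCACGTG, searched on both strands, was present in 10 of 40 (25%) against 4.17%, and the palindrome in which GT precedes and AC follows the core, the letters of the CLEAR element, in 3 of 40 (7.5%) against 0.462%. Both longer motifs contain the core, so the 3 counts overlap. The core was also present in promoters of other genes of the pathway, in 5 of 18 V-ATPase subunits (27.8%), 3 of 11 genes of sorting to the lysosome (27.3%), 3 of 12 genes of the MiT/TFE factors and their control (25%) and 6 of 29 other lysosomal genes (20.7%). The 3 promoters with the palindrome are shown because they hold the sequence at its full length, and those of GM2A and CTSL because these are the 2 genes that passed the test in a comparison of ages. HEXA lies on the plus strand (chr7:60878281-60878580), GALNS on the plus strand (chr6:869034-869333), MCOLN1 on the minus strand (chr2:71613282-71613581), GM2A on the minus strand (chr16:71767823-71768122) and CTSL on the minus strand (chr10:27674656-27674955). Each is written 5′ to 3′ on the strand of the gene, and capitals mark the longest of the 3 motifs at each match.
HEXA: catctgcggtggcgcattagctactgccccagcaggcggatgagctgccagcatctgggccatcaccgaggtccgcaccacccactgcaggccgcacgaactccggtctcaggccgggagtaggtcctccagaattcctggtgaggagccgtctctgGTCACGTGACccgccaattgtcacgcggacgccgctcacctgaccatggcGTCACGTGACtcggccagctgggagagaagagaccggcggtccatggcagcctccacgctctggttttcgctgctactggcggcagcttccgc
GALNS: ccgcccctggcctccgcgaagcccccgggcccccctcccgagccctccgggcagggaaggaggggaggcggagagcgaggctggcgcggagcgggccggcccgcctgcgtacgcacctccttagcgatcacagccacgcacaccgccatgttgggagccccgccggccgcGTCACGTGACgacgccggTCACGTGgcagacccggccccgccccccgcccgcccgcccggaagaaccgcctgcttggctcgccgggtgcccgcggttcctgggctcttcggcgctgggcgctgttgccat
MCOLN1: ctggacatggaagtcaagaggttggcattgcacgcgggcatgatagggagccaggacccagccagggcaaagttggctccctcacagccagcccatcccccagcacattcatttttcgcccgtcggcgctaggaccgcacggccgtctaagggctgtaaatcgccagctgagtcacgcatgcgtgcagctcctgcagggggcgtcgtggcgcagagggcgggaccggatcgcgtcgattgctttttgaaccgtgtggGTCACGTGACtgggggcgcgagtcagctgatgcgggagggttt
GM2A: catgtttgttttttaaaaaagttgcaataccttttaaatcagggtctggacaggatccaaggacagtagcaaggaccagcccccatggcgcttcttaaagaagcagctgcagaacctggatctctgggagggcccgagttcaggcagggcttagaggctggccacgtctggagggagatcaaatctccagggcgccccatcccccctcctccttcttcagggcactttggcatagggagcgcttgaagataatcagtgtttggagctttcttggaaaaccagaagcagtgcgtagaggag
CTSL: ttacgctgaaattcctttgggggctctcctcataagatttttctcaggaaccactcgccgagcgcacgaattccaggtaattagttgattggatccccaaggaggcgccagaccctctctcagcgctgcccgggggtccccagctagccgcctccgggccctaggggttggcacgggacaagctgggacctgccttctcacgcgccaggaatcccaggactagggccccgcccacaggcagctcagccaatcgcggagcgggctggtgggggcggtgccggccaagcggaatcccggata
HEXA held the palindrome at 2 places, with centres 88 and 38 bases before the gene start, GALNS at 75 bases before it together with the motif TCACGTG, centred 58 bases before it, and MCOLN1 at 12 bases after it. Neither GM2A nor CTSL held any of the 3 motifs within this window, which says only that these letters are not in these 300 bases.

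Counts per library ranged from 16404239 to 22857354, and levels are given as CPM, counts divided by the TMM-scaled library size and brought to a common scale. All 12 adipocyte markers were detected in every group, and their summed level ranged from 11263 to 97139.6 CPM over the 18 libraries. Several libraries stood apart. SAF6-3 and VAF6-3 had FASN, the fatty acid synthase of adipocytes, at 139.5 and 257 CPM, while the other libraries of 6 months had 24478 CPM or more. VAF3-1 and VAF3-2 had summed urothelium and kidney markers of 1418 and 539 CPM, against 6.61 CPM in VAF3-3 and at most 5.05 CPM in the libraries of the other groups. VAF6-3 was left out of the tests unless it is named, so VAF at 6 months has 2 libraries. The labels of 4 VAF samples, from 3 and 6 months, contradict each other, and groups were set by the library names. Every SAF library of 1 and 3 months also differed from every VAF library in the reads lost at filtering for unread bases, and at these ages depot and read loss cannot be told apart. Each comparison was fitted on the counts of the 2 groups with edgeR's quasi-likelihood test, and a called gene is one with a p under 0.05 after Benjamini-Hochberg adjustment over all genes tested and a change of more than 1.5-fold.

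The 40 genes were expressed at a high level as a group. On the scale of CPM per kilobase of exon, 38 of the 40 lay in the upper 50% of 15776 expressed genes and 21 in the upper 10%, with a median percentile of 90.7. PSAP, the precursor of the saposin cofactors, had the highest median level over the libraries, at 433 CPM per kilobase, followed by the proteases CTSB at 265, CTSZ at 212 and CTSD at 195. The lowest median levels were those of MANBA, the lysosomal beta-mannosidase, at 4.84 CPM per kilobase, the sulfatase ARSB at 3.92 and the tartrate-resistant acid phosphatase ACP5 at 3.21. GM2A stood in the middle, with rank 24 at 31.4 CPM per kilobase.

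**Figure D1:**
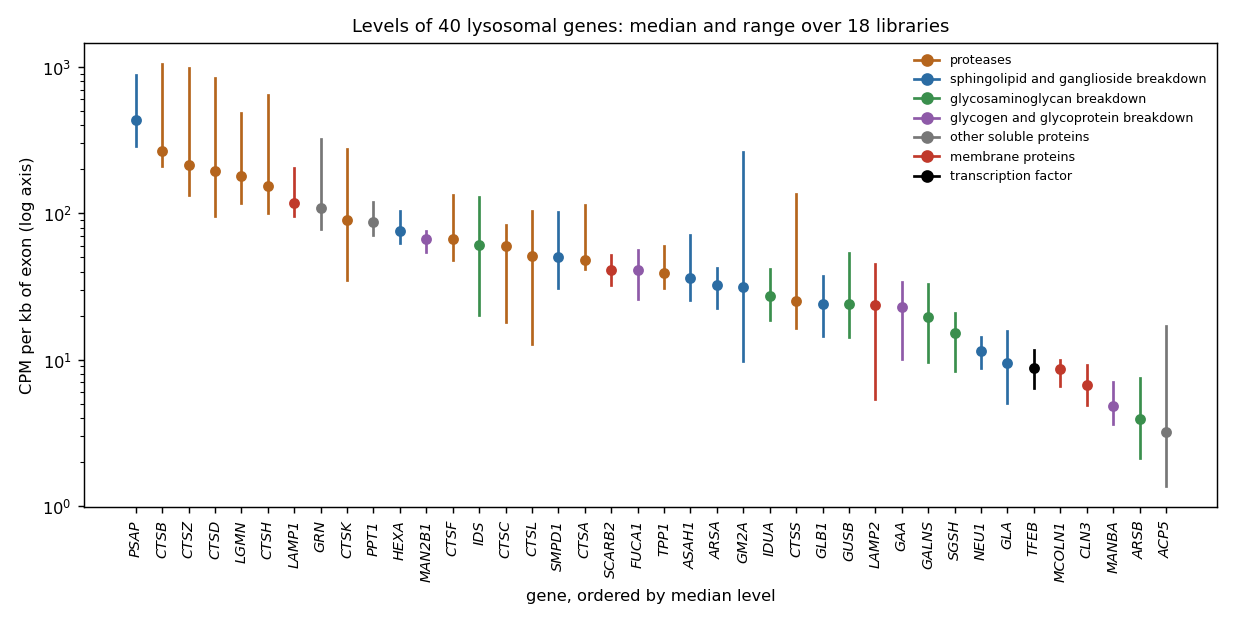
Median (point) and range (line) of CPM per kilobase of exon over the 18 libraries for the 40 genes, on a log axis, ordered by the median and coloured by role. PSAP was highest at 433 CPM per kilobase and ACP5 lowest at 3.21, and the range of GM2A was the widest.

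The spread over libraries differed widely between members. MAN2B1, the lysosomal alpha-mannosidase, had the narrowest range, 1.4-fold from the lowest to the highest library, and the membrane channel MCOLN1 had 1.51-fold. GM2A had the widest, 26.9-fold, followed by ACP5 with 12.4-fold, and these were the only members above 10-fold. The median range was 3.07-fold over the members and 3.48-fold over all expressed genes. The share of all counts that fell on the 40 genes was 0.57 to 0.96% in 17 libraries and 1.75% in VAF1-3.

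**Figure D2:**
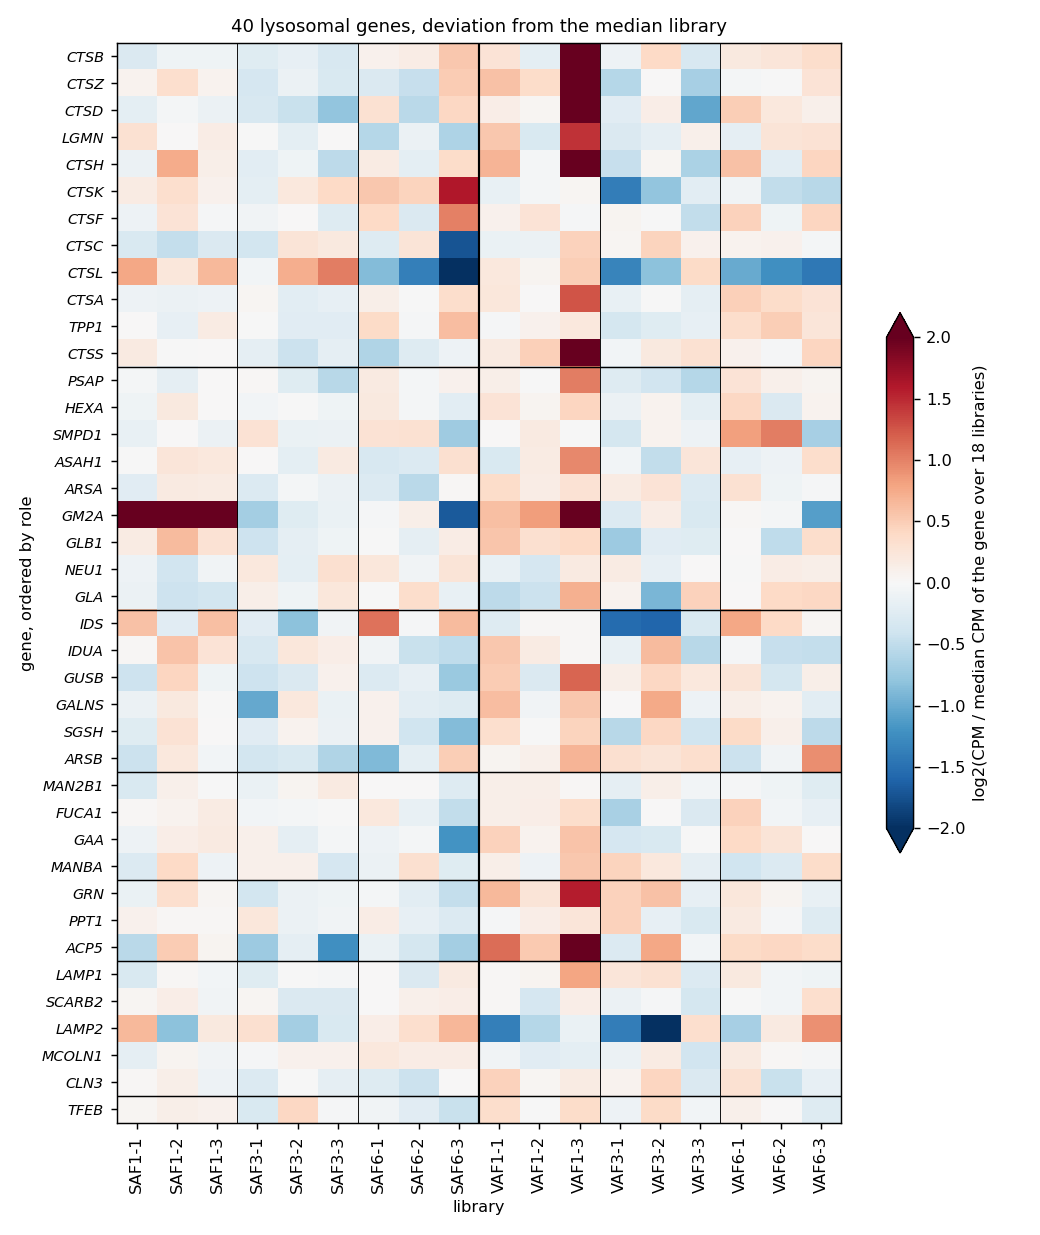
Colour shows log2 of each gene's CPM relative to its own median over the 18 libraries, clipped at 2 in either direction, with genes in lines by role and libraries in columns by depot and age. GM2A was high in the 3 SAF libraries of 1 month, CTSL low in the SAF and VAF libraries of 6 months, and several cathepsins were high in VAF1-3.

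GM2A, the cofactor that lifts ganglioside GM2 out of the membrane for hexosaminidase A, fell between 1 and 3 months in SAF. The gene lies on the minus strand of chromosome 16, from 71742090 to 71767872, and shares no exon bases with another annotated gene. Its level was 628, 334 and 447 CPM in the 3 SAF libraries of 1 month and 46.8, 63.7 and 68.4 CPM in those of 3 months. The lowest library of 1 month thus lay above the highest of 3 months. The means were 469.5 ± 148 and 59.7 ± 11.4 CPM (SD, n = 3), and edgeR gave a log2 fold change (log2FC, older minus younger) of -2.99 ± 0.28 (SE) with an adjusted p of 0.0276. GM2A was the 1 member called, of 15 called genes among 14892 tested (0.101%), and DESeq2 also called GM2A alone among the members, against 2.5% of all genes. Since its fall was known when the genes were chosen, this count is not independent evidence. In a tissue sample, fewer cells of a type and less RNA per cell cannot be told apart.

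The call on GM2A was lost when any of 3 of the 6 libraries was left out. Its log2FC stayed between -3.18 and -2.72 when each library was left out in turn. The adjusted p was 0.158 without SAF1-3, 0.157 without SAF3-2 and 0.1001 without SAF3-3, and over all alternatives it ranged from 2.01e-24 with DESeq2 to 0.158.

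At 6 months GM2A in SAF was as low as at 3 months, at 74.0, 81.2 and 23.3 CPM, the last in SAF6-3. The difference between 6 and 3 months was -0.01 ± 0.42 (log2FC, SE; adjusted p = 0.998), and that between 6 and 1 month was -2.99 ± 0.50 with an adjusted p of 0.0641. Without SAF6-3 the latter was -2.59 with an adjusted p of 0.0232, and DESeq2 also called it. In VAF, GM2A was at 114, 134 and 316 CPM at 1 month, at 61.8, 83.1 and 60.6 CPM at 3 months and at 76.2 and 72.8 CPM at 6 months, with 35.03 CPM in VAF6-3. The groups of 1 and 3 months did not overlap in VAF either, but the gap between them was narrower than in SAF. The log2FC in VAF was -1.45 ± 0.41 from 1 to 3 months (adjusted p = 0.369) and -1.33 ± 0.45 from 1 to 6 months (adjusted p = 0.201), and DESeq2 called both.

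Ordered by group mean, GM2A was highest in SAF at 1 month, then in VAF at 1 month at 188 ± 111 CPM, and the 4 groups of 3 and 6 months lay between 59.5 and 74.5 CPM with overlapping libraries. The 2 groups of 1 month did not overlap, but the lowest SAF library, at 334 CPM, was close to VAF1-3 at 316 CPM, and the difference between depots at 1 month was 1.32 ± 0.43 (log2FC, SAF minus VAF; adjusted p = 0.422). The test of whether GM2A changed differently in the depots from 1 to 3 months gave -1.50 ± 0.61 with an adjusted p of 0.753. HEXA, whose product acts on ganglioside GM2 together with that of GM2A, was between 131 and 161 CPM in SAF at 1 month and between 132 and 139 CPM at 3 months, and the groups overlapped. GLB1, the beta-galactosidase that acts on ganglioside GM1, was at 65.8, 91.6 and 71.9 CPM in SAF at 1 month and at 44.2, 52.2 and 55.6 CPM at 3 months, with no overlap and a log2FC of -0.60 ± 0.17 that did not pass the test (adjusted p = 0.186).

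**Figure D3:**
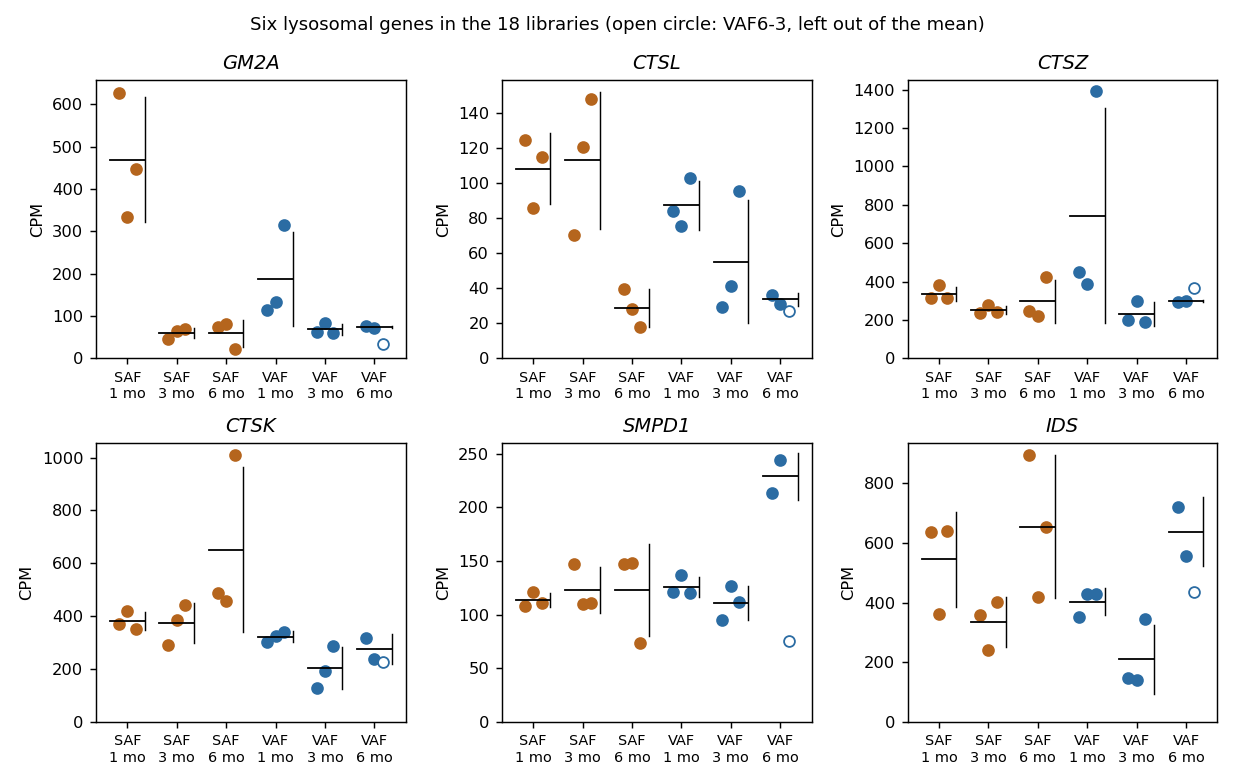
CPM of GM2A, CTSL, CTSZ, CTSK, SMPD1 and IDS in each library (points; brown SAF, blue VAF), with the group mean (horizontal line) and SD (vertical line), and VAF6-3 as an open circle outside the mean. GM2A was at 334 to 628 CPM in SAF at 1 month and CTSL at 18.1 to 39.7 CPM in SAF at 6 months.

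Among the other members in SAF, no further gene passed the test between 1 and 3 months. At an unadjusted p under 0.05 there were 7 of 40, against 13.6% of all genes tested. All 7 were lower at 3 months, as were 1023 of the 14892 genes: GM2A, GLB1, IDS and the proteases CTSZ, CTSS, CTSH and CTSD. CTSZ, a lysosomal carboxypeptidase, was at 317, 380.1 and 316 CPM at 1 month and at 238, 277 and 243 CPM at 3 months, with a log2FC of -0.43 ± 0.15 (adjusted p = 0.284). The median log2FC was -0.17 over the 40 members and -0.03 over all genes. The CPM of the groups did not overlap for 6 members that were lower at 3 months, against 9.13% of all genes, and for 1 that was higher, GLA, against 10.6%.

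CTSL, a cysteine protease of broad specificity, was low in every library of 6 months. The gene lies on the minus strand of chromosome 10, from 27668523 to 27674705, and shares no exon bases with another annotated gene. In SAF it was at 124, 85.4 and 114 CPM at 1 month, 70.3, 120.3 and 148 CPM at 3 months, and 39.7, 28.3 and 18.1 CPM at 6 months. In VAF it was at 84.1, 75.1 and 103 CPM at 1 month, 29.0, 41.2 and 95.2 CPM at 3 months, and 36.1 and 31.1 CPM at 6 months, with 27.0 CPM in VAF6-3. The groups of 1 and 6 months did not overlap in either depot. At 3 months the SAF libraries spanned those of 1 month. In VAF at 3 months, the libraries with urothelium and kidney markers, VAF3-1 and VAF3-2, were near those of 6 months, and VAF3-3 lay among those of 1 month.

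In VAF, CTSL fell from 1 to 6 months by edgeR, with a log2FC of -1.38 ± 0.19 and an adjusted p of 0.0361. It was the 1 member among 142 called genes of 15175 tested (0.936%). The call was lost when any of the 5 libraries was left out, with an adjusted p of 0.0616 to 0.202 and a log2FC of -1.49 to -1.26, and when VAF6-3 was included (adjusted p = 0.190). In SAF, CTSL had a log2FC of -1.93 ± 0.31 from 1 to 6 months (adjusted p = 0.0599) and -1.98 ± 0.36 from 3 to 6 months (adjusted p = 0.165), so that edgeR did not call it. DESeq2 called both, with adjusted p of 3.54e-06 and 6.74e-05, and edgeR called the change from 1 to 6 months without SAF6-3 (adjusted p = 0.0317). The comparisons of ages share libraries within a depot, so these values are not independent of each other. The difference between depots of the change from 3 to 6 months was -1.28 ± 0.58 (adjusted p = 0.567).

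In SAF from 3 to 6 months, edgeR called no member and none of the 14689 genes tested (0.0%). There were 2 members at an unadjusted p under 0.05, against 9.56% of all genes, and DESeq2 called 1, CTSL, against 1.61%. IDS, the iduronate 2-sulfatase of heparan and dermatan sulfate breakdown, was at 359, 240.3 and 403 CPM at 3 months and at 895, 417 and 652 CPM at 6 months, without overlap, with a log2FC of 0.97 ± 0.33 (adjusted p = 0.417). TPP1, a tripeptidyl peptidase, was at 157, 135 and 135 CPM at 3 months and 205, 156 and 241 CPM at 6 months, with a log2FC of 0.49 ± 0.22 (adjusted p = 0.535). The median was 0.03 over the members and 0.02 over all genes. Non-overlapping groups were found for 4 members that were higher at 6 months, against 7.01% of all genes, and for 1 that was lower, against 8.56%.

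In SAF from 1 to 6 months, edgeR called 45 of 14867 genes (0.303%) and no member. At an unadjusted p under 0.05 there were 4 members, CTSL, GM2A, IDUA and LGMN, against 12.7% of all genes. All 4 were lower at 6 months, as were 1215 of the 14867 genes. DESeq2 called CTSL and GM2A, against 2.56%. IDUA, the alpha-L-iduronidase, was at 102, 149.7 and 121 CPM at 1 month and at 96.3, 74.2 and 70.9 CPM at 6 months, with a log2FC of -0.64 ± 0.22 (adjusted p = 0.291), and its exons overlap those of SLC26A1 on the other strand by 141 bases. The median was -0.10 over the members and 0.02 over all genes. Non-overlapping groups were found for 4 members that were higher at 6 months, CTSA, CTSB, CTSK and MCOLN1, against 8.1% of all genes, and for 7 that were lower, against 10.9%.

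SAF6-3 differed from the other 2 SAF libraries of 6 months in several members. It had the lowest CPM of all 18 libraries for 10 of the 40 members, against 10.4% of expressed genes. CTSC, the dipeptidyl peptidase that activates granule proteases, was at 84.7 CPM in SAF6-3 against 234 and 335 CPM in SAF6-1 and SAF6-2, and the acid alpha-glucosidase GAA at 37.3 CPM against 79.5 and 83.0 CPM. CTSK went the other way, at 1010.3 CPM against 486 and 455 CPM. The summed macrophage markers were 1371 CPM in SAF6-3, the highest of the SAF libraries. Its summed adipocyte markers were 13007 CPM, against 86664 and 78769 CPM in SAF6-1 and SAF6-2, and its fibroblast and progenitor markers 6055 CPM, against 31054 and 39161 CPM. The part of these in the values of SAF6-3 was not tested. VAF3-3 was also the lowest library for 10 members, against 2.81% of expressed genes, among them PSAP, CTSB, CTSZ, CTSD and CTSH, and the highest for none.

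In VAF from 1 to 3 months, 37 of the 40 members had a log2FC below 0, while 8005 of the 15275 genes tested had one above 0. None of the members passed the edgeR test, which called none of the 15275 genes (0.0%). The median log2FC was -0.34 over the members and 0.02 over all genes, and -0.21 over the members without VAF1-3. At an unadjusted p under 0.05 there were 8 members, against 9.07% of all genes. All 8 were lower at 3 months, as were 605 of the 15275 genes. DESeq2 called GM2A and CTSZ, against 2.81%. CTSZ was at 452, 389 and 1391 CPM at 1 month and at 202, 301 and 190.1 CPM at 3 months. The groups did not overlap, the log2FC was -1.67 ± 0.52 (adjusted p = 0.393), and without VAF1-3 it was -0.86. GLB1 was at 86.8, 73.2 and 77.9 CPM at 1 month and at 35.5, 50.4 and 49.95 CPM at 3 months, without overlap, with a log2FC of -0.80 ± 0.20 (adjusted p = 0.340). In all, 10 members did not overlap and were lower at 3 months, against 6.96% of all genes, and none was higher without overlap, against 5.42%. VAF3-1 and VAF3-2 carried the urothelium and kidney markers and also summed smooth muscle markers of 7026 and 6663 CPM, against 504 CPM in VAF3-3, and the part of these in the 3-month values was not tested.

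In VAF from 3 to 6 months, edgeR again called no member and none of 15596 genes (0.0%). At an unadjusted p under 0.05 there were 3 members, SMPD1, IDS and TPP1, against 10.8% of all genes. All 3 were higher at 6 months, as were 648 of the 15596 genes. DESeq2 called SMPD1 and IDS, against 2.4%. SMPD1, the acid sphingomyelinase, was at 94.6, 126 and 112 CPM at 3 months and at 213 and 245 CPM at 6 months. The groups did not overlap, with a log2FC of 1.04 ± 0.27 (adjusted p = 0.452), but VAF6-3, left out of the test, was at 75.8 CPM. IDS was at 146, 141 and 343 CPM at 3 months and at 719.7 and 557 CPM at 6 months, with 437 CPM in VAF6-3, and VAF3-3 stood above the other 2 libraries of 3 months. Its log2FC was 1.59 ± 0.47 (adjusted p = 0.452). Without VAF3-3, edgeR called IDS at 2.16 with an adjusted p of 0.00677, as 1 of 1689 genes called. That fit leaves at 3 months only VAF3-1 and VAF3-2, the libraries with urothelium and kidney markers. Their summed adipocyte markers were 12895 and 12171 CPM, against 47565 CPM in VAF3-3, and the part of these in the IDS values was not tested. The median was 0.15 over the members and -0.04 over all genes. Non-overlapping groups were found for 7 members that were higher at 6 months, against 14.1% of all genes, and 2 that were lower, against 12.6%.

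In VAF from 1 to 6 months, CTSL was the only member edgeR called, and 5 members had an unadjusted p under 0.05, against 17.9% of all genes. DESeq2 called CTSL and GM2A as lower and SMPD1 and IDS as higher at 6 months, against 5.64% of all genes. SMPD1 was at 121, 137 and 119.7 CPM at 1 month, below both libraries of 6 months, with a log2FC of 0.86 ± 0.17 (adjusted p = 0.0714). IDS was at 352, 428 and 429 CPM at 1 month, also below both, with a log2FC of 0.66 ± 0.21 (adjusted p = 0.182). GLB1 was at 59.5 and 41.3 CPM at 6 months, below the 3 libraries of 1 month, but VAF6-3 was at 75.1 CPM, among those of 1 month. The fit without VAF6-3 gave a log2FC of -0.66 ± 0.20 (adjusted p = 0.171). The median was -0.24 over the members and -0.02 over all genes, and -0.09 over the members without VAF1-3. With 2 libraries in 1 group, 11 members did not overlap and were lower at 6 months, against 18.6% of all genes, and 4 were higher, against 18.9%.

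**Figure D4:**
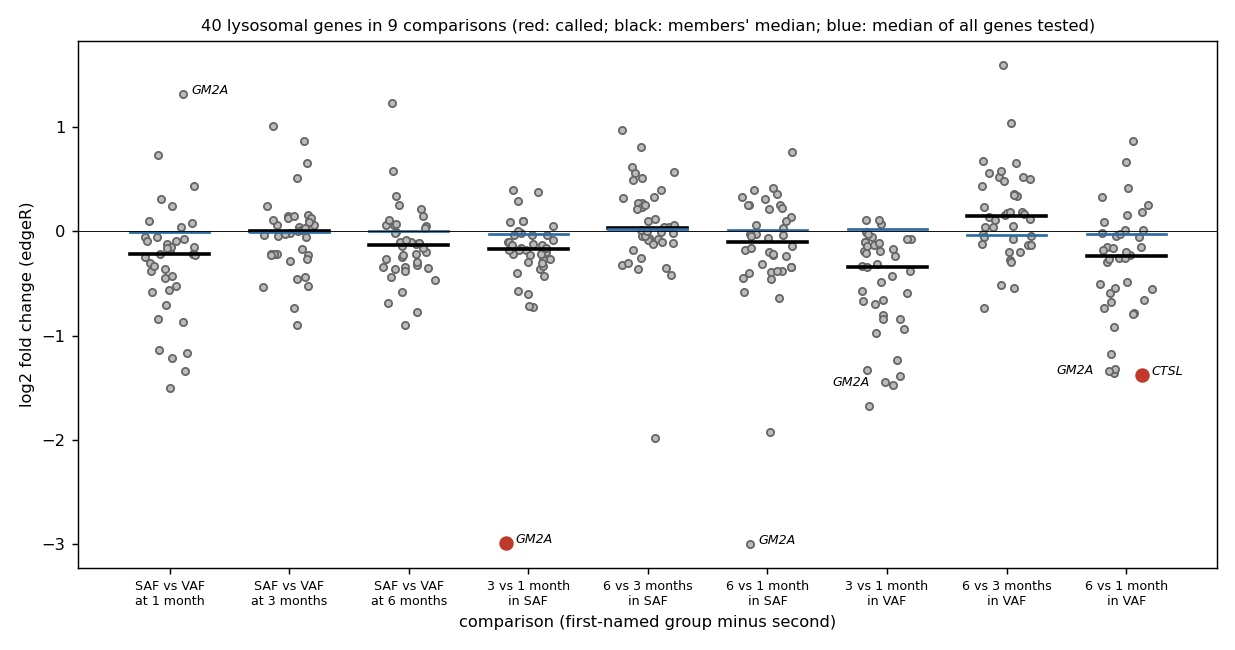
edgeR log2FC of the 40 genes (points, spread sideways for legibility) in the 9 comparisons, with the median of the members (black) and of all genes tested (blue), and genes that passed the test in red. The 2 red points are GM2A at -2.99 from 1 to 3 months in SAF and CTSL at -1.38 from 1 to 6 months in VAF.

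Between depots, no member passed the edgeR test at any age. At 1 month edgeR called none of 15064 genes (0.0%), at 3 months 6 of 14960 (0.0401%) and at 6 months none of 14962 (0.0%). The members at an unadjusted p under 0.05 were 5 at 1 month, against 11.3% of all genes, 2 at 3 months, against 12.6%, and 3 at 6 months, against 6.79%. DESeq2 called no member at 1 month (0.84% of all genes) or at 6 months (0.867%), and at 3 months it called ARSB (4.34%). The median log2FC, SAF minus VAF, over the members was -0.22 in the pigs of 1 month, 0.01 in those of 3 months and -0.13 in those of 6 months, and that over all genes was 0.00, 0.00 and 0.01.

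For CTSK, which was higher in SAF, and CTSS, which was lower in SAF, the libraries of the depots did not overlap at any age. The share of all genes without overlap at every age was not counted, so this is not read as particular to these genes. Some gaps were narrow, at 115.1 against 115.9 CPM for CTSS at 1 month and 292.2 against 286.9 CPM for CTSK at 3 months. CTSK, the collagen-degrading cathepsin known from osteoclasts, was at 352 to 418 CPM in SAF and 301 to 340.1 CPM in VAF at 1 month, and at 292 to 441 CPM against 128 to 287 CPM at 3 months. At 6 months it was at 455 to 1010.3 CPM in SAF against 317 and 236 CPM in VAF, with 226 CPM in VAF6-3. The log2FC of CTSK of 0.86 ± 0.34 at 3 months (adjusted p = 0.350) and 1.23 ± 0.45 at 6 months (adjusted p = 0.676) did not pass the test, and the latter was 0.77 without SAF6-3. Of its 3669 exon bases, 554 overlap those of ARNT on the same strand, so reads there cannot be assigned with certainty. CTSS, a cathepsin of antigen-presenting cells, was at 102 to 115 CPM in SAF against 116 to 547 CPM in VAF at 1 month, at 75.5 to 90.3 CPM against 98.4 to 126 CPM at 3 months, and at 67.0 to 94.6 CPM against 109 and 99.9 CPM at 6 months. The summed macrophage markers were 457 to 828 CPM in SAF and 1054 to 2575 CPM in VAF at 1 month, 563 to 1085 CPM against 1141 to 2754 CPM at 3 months and 619 to 1371 CPM against 1526 to 3663 CPM at 6 months, with no marker at 0 in every library of a group. The summed fibroblast and progenitor markers were 36095 to 64454 CPM in SAF and 18895 to 64240.0 CPM in VAF at 1 month, 35794 to 44508 CPM against 15472 to 29997 CPM at 3 months, without overlap, and 6055 to 39161 CPM against 13470.2 to 21079 CPM at 6 months. The part of either list in the differences was not tested.

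At 1 month, members without overlap were 6 that were lower in SAF, against 8.79% of all genes, and 2 that were higher, CTSK and GM2A, against 8.7%. ACP5 was at 4.57, 9.45 and 6.94 CPM in SAF and at 14.5, 9.63 and 35.3 CPM in VAF, with a log2FC of -1.50 ± 0.51 (adjusted p = 0.422). GRN, the precursor of granulins, was at 207, 287 and 234 CPM in SAF and at 357, 270.4 and 677 CPM in VAF, with overlap and a log2FC of -0.84 ± 0.34 (adjusted p = 0.432). In both genes VAF1-3 was the highest library, and without it the log2FC was -0.79 and -0.38.

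At 3 months, 1 member was higher in SAF without overlap, against 8.17% of all genes, and 3 were lower, against 7.82%. ARSB, the sulfatase of dermatan and chondroitin sulfate, was at 17.7, 18.3 and 14.9 CPM in SAF and at 28.2, 27.1 and 28.6 CPM in VAF. The groups did not overlap, and the spread within VAF was small, with a log2FC of -0.74 ± 0.19 (edgeR adjusted p = 0.199, DESeq2 adjusted p = 0.0460). Its exons share 174 bases with an uncharacterised gene on the other strand. Leaving out VAF3-3 leaves in VAF only the 2 libraries with urothelium and kidney markers. Without it, edgeR called 2740 genes and 6 of the 40 members, while 14960 genes were tested with VAF3-3 in the fit. Among the 6 were CTSK at 1.18 (adjusted p = 0.0284) and ARSB at -0.73 (adjusted p = 0.0429). This count is not read as a result about the members.

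At 6 months, with VAF6-3 left out, 3 members were higher in SAF without overlap, against 14.5% of all genes, and 8 were lower, against 13.8%. Counting VAF6-3 ends this for MANBA and SCARB2 among the higher and CTSA, SMPD1, SGSH, GRN and TFEB among the lower. SMPD1 was at 147, 148 and 73.3 CPM in SAF, below the 2 VAF libraries, with a log2FC of -0.90 ± 0.35 (adjusted p = 0.703). VAF6-3 was at 75.8 CPM, within the SAF range. The replicate numbers were taken as pairs at this age because of correlations in these same data, and the sources do not state the pairing. The fit with the replicate block called 766 of 14962 genes and 2 of the 40 members, CTSK at 0.79 (adjusted p = 0.0408) and SMPD1 at -0.63 (adjusted p = 0.0426). With VAF6-3 left out, SAF6-3 has no partner, so this fit compares the depots only in replicates 1 and 2. When VAF6-3 was included with the block, the fit called 97 genes and no member.

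The tests of whether depots changed differently with age called no gene of 16664 (0.0%) from 1 to 3 months or from 3 to 6 months. At an unadjusted p under 0.05 there were 943 of the 16664 genes and 2 of the 40 members for the first, CTSZ and GM2A. For the second there were 1449 of the 16664 genes and 3 of the 40 members, SMPD1, GAA and CTSL. DESeq2 called 104 and 110 genes (0.44% and 0.466%) and no member. For SMPD1 the difference was -1.05 ± 0.34 (adjusted p = 0.509), for GAA -0.87 ± 0.36 (adjusted p = 0.539) and for CTSZ 1.28 ± 0.56 (adjusted p = 0.811), and for CTSZ it was 0.43 without VAF1-3.

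VAF1-3 stood apart from the other libraries in the members. It had the highest CPM of the 18 libraries for 19 of the 40 members (47.5%), against 5.56% of expressed genes. Relative to the mean of VAF1-1 and VAF1-2, 12 members were above 2-fold, against 3.48% of expressed genes, and the median was 1.32-fold over the members and 0.993-fold over expressed genes. Cathepsins led: CTSS was at 4.24-fold, CTSD at 4.07-fold, CTSB at 3.83-fold, CTSZ at 3.31-fold and CTSH at 3.20-fold. CTSD, the main aspartic protease, was at 1693 CPM in VAF1-3 against 429 and 403 CPM in VAF1-1 and VAF1-2, and CTSB at 3059.7 CPM against 927 and 669 CPM. Other proteases did not stand out there, with CTSK at 1.09-fold and CTSF at 0.867-fold, and among membrane proteins LAMP1 was at 1.68-fold and MCOLN1 at 0.968-fold.

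Macrophage markers were unevenly high in the same library. Of the 16 markers, 8 were above 2-fold and none was below 1-fold, with a median of 2.00-fold. GPNMB at 10.3-fold, TREM2 at 10.3-fold and MSR1 at 9.67-fold led, and CD68, itself a lysosomal membrane protein, was at 3.50-fold, while CD163 at 1.17-fold, MRC1 at 1.39-fold and the complement genes C1QA, C1QB and C1QC at 1.02 to 1.16-fold differed little. Several of these markers were also high in VAF6-3. There GPNMB was at 121 CPM against 27.8 and 35.1 CPM in VAF6-1 and VAF6-2, MSR1 at 37.4 CPM against 7.93 and 10.1 CPM, and CD163 at 817 CPM against 146 and 154 CPM, while CTSB, CTSD and CTSS were at 983, 422 and 137 CPM. In VAF1-3, GPNMB was at 504.5 CPM, MSR1 at 155 CPM and CD163 at 99.0 CPM. The summed macrophage markers were 2575 CPM in VAF1-3, below 2754 CPM in VAF3-2 and 3663 CPM in VAF6-3. Its summed neutrophil markers were 62.9 CPM, against 14.5 and 8.68 CPM in VAF1-1 and VAF1-2. Most of this was CSF3R, at 51.5 CPM against 4.43 and 1.93 CPM, while S100A8 and S100A9 were not higher there. The part of the markers in the values of VAF1-3 was not tested.

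**Figure D5:**
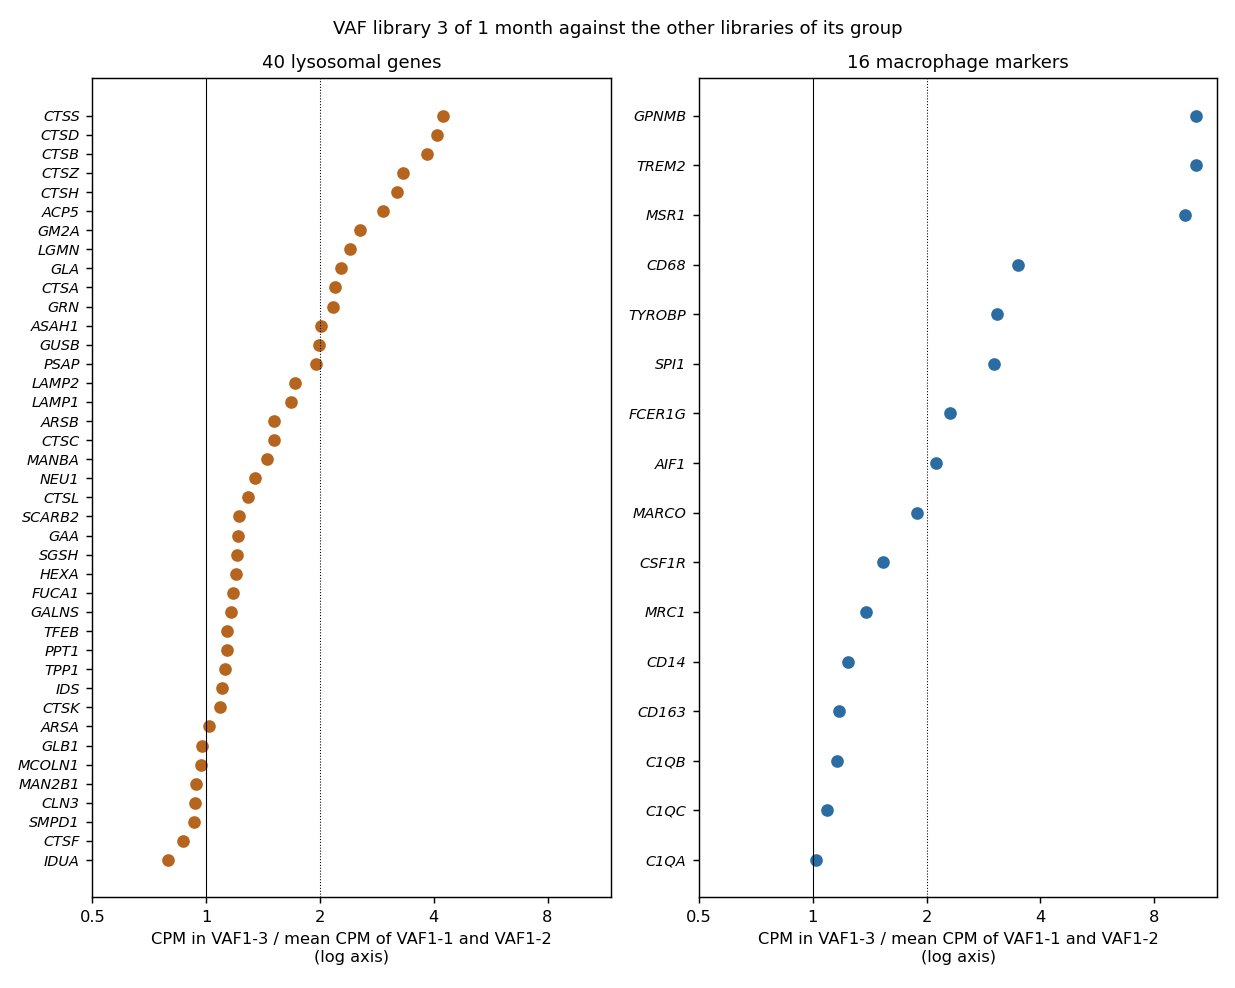
CPM in VAF1-3 divided by the mean CPM of VAF1-1 and VAF1-2 on a log axis, for the 40 lysosomal genes (left) and the 16 macrophage markers (right), with lines at 1-fold and 2-fold. CTSS, CTSD and CTSB led the lysosomal genes at 3.83 to 4.24-fold, and GPNMB, TREM2 and MSR1 the markers at 9.67 to 10.3-fold.

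Among the other genes of the pathway, edgeR called none in any of the 9 comparisons. They were 30 other lysosomal genes, 18 subunits of the V-ATPase proton pump, 11 genes of sorting to the lysosome and 12 genes of the MiT/TFE factors and their control. At an unadjusted p under 0.05, 15 of 69 of these genes tested (21.7%) differed between depots at 1 month, against 11.3% of all genes. Of the 15, 13 were lower in SAF, as were 838 of all 15064 genes. VAF1-3 was in this comparison, with LAPTM5 at 495 CPM against 225 and 157 CPM in VAF1-1 and VAF1-2. LAPTM4A was at 480 CPM there against 556 and 468 CPM. The part of VAF1-3 in this count was not tested, and depot and read loss cannot be told apart at this age. The counts at 3 and 6 months were 5 of 69 each (7.25%), against 12.6% and 6.79%. In SAF they were 10 of 69 (14.5%) from 1 to 3 months, against 13.6%, 8 (11.6%) from 3 to 6 months, against 9.56%, and 7 (10.1%) from 1 to 6 months, against 12.7%. In VAF they were 9 of 70 (12.9%) from 1 to 3 months, against 9.07%, 7 of 70 (10%) from 3 to 6 months, against 10.8%, and 11 of 69 (15.9%) from 1 to 6 months, against 17.9%. DESeq2 called 4 of these genes in 8 of 638 tests over the 9 comparisons (1.25%), against 0.84 to 5.64% of all genes in a comparison. CTSW, a cathepsin of cytotoxic lymphocytes, was at 4.87, 7.50 and 5.43 CPM in SAF at 6 months and at 33.8 and 22.2 CPM in VAF, with a log2FC of -2.24 ± 0.31 (edgeR adjusted p = 0.260), and VAF6-3 was at 8.62 CPM. DESeq2 called this difference and also CTSW as lower at 6 months than at 1 and 3 months in SAF. CTNS, the cystine transporter of the lysosomal membrane, was at 15.5, 18.9 and 17.0 CPM in SAF at 3 months and at 39.6, 26.0 and 51.9 CPM at 6 months, and DESeq2 called it at 1.19 ± 0.31. LIPA, the acid lipase, was at 559, 432 and 449 CPM in SAF and 203, 169 and 346 CPM in VAF at 3 months, with a DESeq2 log2FC of 0.99 ± 0.33. Its 2 low VAF values were in VAF3-1 and VAF3-2, with summed adipocyte markers of 12895 and 12171 CPM against 47565 CPM in VAF3-3. The part of these in the LIPA difference was not tested. ATP6V0D2, a V-ATPase subunit of osteoclasts and kidney, was at 14.3 and 5.80 CPM in VAF3-1 and VAF3-2, the libraries with urothelium and kidney markers, and below 3 CPM in every other library.

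The transcription factors gave no call. TFEB was at 15.2 to 27.7 CPM over the 18 libraries and passed the test in none of the 9 comparisons. Of the 12 genes of the MiT/TFE list, MITF had the smallest p from 1 to 3 months in VAF, at 18.02, 37.2 and 53.2 CPM at 1 month and 12.6, 15.1 and 18.2 CPM at 3 months, with a log2FC of -1.23 ± 0.39 (adjusted p = 0.395). The groups overlapped at VAF1-1 and VAF3-3.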

How the data were processed

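Reads had been trimmed with fastp, mapped to Sscrofa11.1 with HISAT2 (2.0.4 in the submitters' processing notes) and assigned to genes with HTSeq-count by the authors. The values they deposited are these raw counts, and all 18 columns were used. The annotation release and the strand setting are not given in the sources used here. Overlapping exons are stated above only for CTSK, ARSB and IDUA. Of the other members, CTSA (537 bases), PSAP (439), GLB1 (131), CLN3 (126), GAA (100), SGSH (52) and CTSZ (3) also share exon bases with other genes. So do CTNS (482) and LIPA (303) among the pathway genes, and reads there cannot be assigned with certainty.

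Tests were run in R 4.3.3 with edgeR 4.0.16 (glmQLFit and glmQLFTest, TMM, filterByExpr, group only) on the 2 groups of each of 9 comparisons. The 2 tests of depot by age used 1 fit of 17 libraries at an adjusted p under 0.05. DESeq2 1.42.0 was the alternative tool, and p-values measure the spread between libraries of pigs with 1 sire. Both depots came from the same 9 pigs, but the tests between depots and of depot by age treated all libraries as independent. Only the replicate block pairs libraries, and whether its numbers mark the same pig is not known. Promoters were read with pysam 0.24.0, tables were made with pandas 2.3.3 and numpy 2.4.6 in Python 3.11.15, and the 10 most abundant genes were left out of the totals as a check of the share of counts.

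The members, their roles and the lists of pathway and marker genes were chosen with earlier results of these data known. The genes given a log2FC with its test were drawn from GM2A, the members called by either tool and the 3 members of smallest p in a comparison. Pathway genes were drawn from those called by either tool or of smallest p in their list. Not every gene that meets this rule is given in every comparison, so a gene left out may also meet it. Other alternatives were edgeR with the size factors of DESeq2, edgeR without its filter on low counts, no limit on the fold change, all groups in 1 fit, the replicate block, inclusion of VAF6-3, each library left out in turn, and the other reading of the labels, which takes VAF3-1, VAF3-2 and VAF6-1 as 3 months and VAF6-2 and VAF6-3 as 6 months and leaves out VAF3-3, which it would place at 6 months. The pairing comes from the replicate numbers in the labels. At 6 months the deviations of the 3 same-numbered pairs of SAF and VAF correlated at 0.587, 0.466 and 0.650 with VAF6-3 included. With VAF6-3 left out, replicates 1 and 2 correlated at 0.327 and 0.258. Those 2 values are not independent, because the deviations of 2 libraries from their mean mirror each other. The numbers were taken as pairs there from these same data, so the calls with the block rest on that choice. VAF6-3 included with the block was added after the values with VAF6-3 were seen. SAF6-3 and VAF6-3 both stood apart at this age, and their part in the correlations was not tested. At 1 and 3 months and between ages at least 1 pair was below 0.1.

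The tests were checked on simulated counts with 200 changed genes at a log2FC of 2. edgeR recovered 97% for 3 against 1 month in SAF among 14992 genes, 88.5% for 6 against 1 month in VAF among 15235 genes and 58% for the depot difference of 3 against 1 month among 16175 genes. False calls were 11, 6 and 8 with edgeR and 24, 39 and 24 with DESeq2. Every simulated gene had a dispersion of 0.1, and no simulated library stood apart, as several did here. The comparisons of 3 months with 1 and 6 months in VAF were not simulated on their own.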

Additional observations from a re-analysis of the deposited data

How the results depend on the processing

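The direction of the median log2FC of the members held under all 11 to 13 alternatives in 8 of the 9 comparisons, and at 3 months between depots it lay between -0.19 and 0.046. The 2 members called by edgeR were 1 per comparison, and the counts moved as follows; where no cause is given, the cause was not tested. With DESeq2, 1 member was called between depots at 3 months and from 3 to 6 months in SAF, 2 from 1 to 6 months in SAF, from 1 to 3 months in VAF and from 3 to 6 months in VAF, and 4 from 1 to 6 months in VAF. With no filter on low counts, 2 members were called from 1 to 6 months in SAF. With all groups in 1 fit, 2 were called there, 1 from 1 to 3 months in VAF and 0 from 1 to 6 months in VAF. With VAF6-3 included, and with the other reading of the labels, 0 were called from 1 to 6 months in VAF. Apart from DESeq2, the shares of all genes called are not given for these settings, so the counts are not read as a result about the members. The other reading of the labels, which also leaves out VAF3-3, moved the median between depots at 3 months to -0.19; without VAF3-3 alone it was -0.12.

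When each library was left out in turn, the number of members called ranged from 0 to 6 between depots at 3 months (6 without VAF3-3), from 0 to 1 from 1 to 3 months in SAF, from 0 to 2 from 1 to 6 months in SAF, from 0 to 2 from 1 to 3 months in VAF, from 0 to 2 from 3 to 6 months in VAF, and was 0 in each fit from 1 to 6 months in VAF. The median between depots ranged from -0.12 to 0.046 at 3 months (the lowest without VAF3-3), from -0.25 to -0.029 at 6 months (without VAF6-2 and VAF6-1) and from -0.31 to -0.13 at 1 month. The median between ages ranged from -0.18 (without SAF1-1) to -0.039 (without SAF6-3) from 1 to 6 months in SAF, from 0.019 to 0.078 from 3 to 6 months in SAF, from -0.47 to -0.21 from 1 to 3 months in VAF, from 0.070 to 0.17 from 3 to 6 months in VAF and from -0.37 to -0.088 from 1 to 6 months in VAF. Without VAF3-3, the number of genes called in all was 2740 between depots at 3 months, 1013 from 1 to 3 months and 1689 from 3 to 6 months in VAF; in the last 2, 2 members were called. Without SAF6-3, 243 genes and 2 members were called from 1 to 6 months in SAF. The shares of all genes called are not given for the fits with a library left out, so these counts are not read as a result about the members. Where 1 library remains in a group, its spread is assumed to equal that of the other groups.

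With the replicate block, 2 of the 40 members and 766 of 14962 genes were called between depots at 6 months, where SAF6-3 has no partner. The numbers do not pair samples of different ages, and there the block changed 1 count of members, from 3 to 6 months in VAF. In that fit VAF3-3 has no partner, and it called 3 of the 40 members and 2290 of 15596 genes. The block changed no other count of members.

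GM2A changed sign only where its difference was small. From 3 to 6 months in SAF its log2FC was 0.047 without SAF3-2 and 0.094 without SAF3-3, and over the libraries left out in turn it ranged from -0.30 to 0.38, the latter without SAF6-3. From 3 to 6 months in VAF it was -0.18 with VAF6-3 included and -0.43 with the other reading of the labels. Between depots at 6 months it was 0.061 with the replicate block, 0.16 with the other reading and 0.063 without SAF6-3, and it ranged from -0.62 to 0.063 over the libraries left out in turn. For the depot difference of 3 to 6 months it was 0.16 with VAF6-3 included, 0.44 with the other reading and 0.29 without SAF6-3, with a range of -0.43 to 0.29. With the 10 genes of highest count left out of the totals, the share of counts on the members was 0.68 to 1.03% in 17 libraries and 1.96% in VAF1-3. Recovery of differences under a log2FC of 2 was not simulated, and ages within VAF rest on libraries that differ in markers of other tissues.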

Other observations

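VAF6-3, which entered the comparisons only as an alternative, had the highest level of the 18 libraries for 3 members, against 11.4% of expressed genes, and the lowest for none, against 11.9%. LAMP2, a membrane protein that also takes part in chaperone-mediated autophagy, was at 128 CPM there, against 42.7 and 76.2 CPM in VAF6-1 and VAF6-2. ARSB was at 43.5 CPM against 16.9 and 21.7 CPM, and SCARB2, the receptor that carries glucocerebrosidase to the lysosome, at 250.3 CPM against 198 and 191 CPM. SMPD1 was at 75.8 CPM against 213 and 245 CPM. The summed macrophage markers were 3663 CPM in VAF6-3 against 1526 and 1612 CPM, and the summed adipocyte markers were 11263 CPM against 65653.6 and 97139.6 CPM. These values rest on 1 library, and the part of the markers in them was not tested.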
